A study of Mus musculus with 70 samples.

Results

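The receptors for the colony-stimulating factors are encoded by 5 genes in these data, out of 52636 genes counted: Csf1r, Csf2ra, Csf2rb, Csf2rb2 and Csf3r. The genes were chosen by name, and their read counts were taken from 68 libraries of leukocytes that were sorted from mouse blood. The mice were C57BL/6J, bought at 7 weeks of age. CON mice were not stressed, while SUS and RES mice went through chronic social defeat stress (CSDS) for 10 days, in which a larger CD-1 mouse attacks the test mouse each day. SUS and RES mice had the same treatment and were told apart afterwards by their social interaction (SI) ratio, which was below 1 in SUS mice, so that these groups were not assigned. No mouse carried a transgene or mutation in the labels, and the labels do not say which libraries came from the same mouse, or that each came from a separate one, so p-values measure the spread between these libraries. Cells were stained for CD11b, Ly6C, Ly6G, B220 and CD90.2 and sorted into Ly6Chigh monocytes (6 CON, 6 SUS and 6 RES libraries), Ly6Clow monocytes (4 CON, 6 SUS and 6 RES), B cells and T cells (each 6 CON, 6 SUS and 5 RES). Brain is the source named in the sample labels, while the series description and the methods give blood; blood was followed here.

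Libraries 52 and 70 were left out. Library 52, labelled as B cells, held 0.0968 CPM (read count scaled to library size) of the B cell gene Ms4a1 and 352 CPM of the T cell gene Cd3e, and library 70, labelled as T cells, held 374 CPM of Ms4a1 and 0.109 CPM of Cd3e. In the others, the summed level of 4 B cell genes was 3471 to 4725 CPM in B cells and 17.9 CPM or less in Ly6Chigh monocytes, and 4 Ly6Chigh monocyte genes (Ly6c2, Ccr2, F13a1 and Chil3) summed to 5675 to 11018 CPM in Ly6Chigh monocytes and 493 CPM or less in Ly6Clow monocytes. The libraries used held between 19769835 and 67038231 counts. Of the T cell libraries, 7 stood apart and are described with the T cells.

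The colony-stimulating factors are secreted proteins that drive the growth, survival and activation of myeloid cells. Csf1r is a receptor tyrosine kinase for M-CSF (encoded by Csf1) and IL-34, and monocytes and macrophages depend on it. Csf3r binds G-CSF, signals through Jak kinases and Stat3, and is best known from neutrophils, although monocytes carry it too. The GM-CSF receptor has separate chains. Csf2ra encodes the alpha chain, which binds GM-CSF and no other ligand, and Csf2rb encodes the common beta chain, which is shared with the receptors for IL-3 and IL-5 and carries the signal through Jak2 and Stat5. Csf2rb2 is a copy of Csf2rb found in the mouse, and its product works with the IL-3 receptor alpha chain Il3ra.

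The stretch just before the start of Csf2ra and of Csf2rb2 is shown here because these genes moved in opposite directions in Ly6Chigh monocytes after CSDS. Each is 250 bases, from RefSeq on GRCm38.p6, written along the strand of the gene so that the last base lies next to the start. Capitals mark the motif GAGGAA, an ETS core of the kind that Spi1 (PU.1) binds, or its reverse complement TTCCTC.
Csf2ra, chr19:61228419-61228668, minus strand: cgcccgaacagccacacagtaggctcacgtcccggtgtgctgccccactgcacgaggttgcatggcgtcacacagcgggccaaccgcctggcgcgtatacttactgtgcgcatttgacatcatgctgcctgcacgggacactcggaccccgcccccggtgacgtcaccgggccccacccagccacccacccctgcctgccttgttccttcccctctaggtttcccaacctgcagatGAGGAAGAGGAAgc
Csf2rb2, chr15:78305722-78305971, minus strand: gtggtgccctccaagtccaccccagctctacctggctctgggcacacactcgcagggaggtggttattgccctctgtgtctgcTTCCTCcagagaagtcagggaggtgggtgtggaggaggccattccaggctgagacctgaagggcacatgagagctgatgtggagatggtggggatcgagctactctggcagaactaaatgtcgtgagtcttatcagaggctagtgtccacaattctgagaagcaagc
Csf2ra held the motif at 14 and 8 bases before the start, next to each other and on the same strand. Csf2rb2 held it once, on the other strand, at 167 bases, and Csf3r once, at 86 bases. Of all 32851 RefSeq promoters, 23.3% held GAGGAA on either strand in this window. The C/EBP motif TTGCNNAA, searched on both strands, was found in none of the 3 windows, and in 9.56% of all promoters. These are matches of letters and do not show binding. The RefSeq starts of Csf2ra and Csf3r lie inside these genes as the GENCODE annotation gives them, so that the Csf3r match, the Csf2ra match at 8 bases and part of that at 14 bases lie within the annotated gene.

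In the GRCm38 (mm10) annotation, Csf1r (ENSMUSG00000024621) lies on chromosome 18 from 61100598 to 61132149, on the plus strand. Csf3r (ENSMUSG00000028859) lies on chromosome 4 from 126024550 to 126044440, on the plus strand. Csf2ra (ENSMUSG00000059326) lies on chromosome 19 from 61223957 to 61228429, on the minus strand. The beta chain genes are neighbours on chromosome 15: Csf2rb (ENSMUSG00000071713) runs from 78325752 to 78353847 on the plus strand, and Csf2rb2 (ENSMUSG00000071714) from 78282507 to 78305721 on the minus strand. All are protein-coding. Reads were counted over exons, UTRs included, which cover 5774 bases for Csf1r, 3609 for Csf3r, 2871 for Csf2ra, 7277 for Csf2rb and 4740 for Csf2rb2. The beta chain genes are near copies in part: of all 100-base windows of their transcripts, 4.63% of those of Csf2rb and 6.82% of those of Csf2rb2 also occurred in the other gene, so a small part of their reads could be lost or assigned to the wrong copy. Csf1r shares 873 exonic bases with Hmgxb3 on the opposite strand, and whether strand was used in counting is not given in the sources used here.

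All 5 receptor genes were read at high levels in both kinds of monocyte and at low levels in B cells and T cells. The lowest count of any receptor in a monocyte library was 810 reads, for Csf2rb2 in Ly6Clow monocytes. To compare genes with each other, CPM was divided by exonic length in kilobases. In Ly6Chigh monocytes the order by median was Csf1r (285 CPM per kb), Csf3r (126), Csf2ra (85.7), Csf2rb (56.7) and Csf2rb2 (18.2). Csf1r was above Csf3r in 18 of 18 libraries and Csf3r above Csf2ra in 16, but Csf2ra was above Csf2rb in only 12, so that the alpha and common beta chains of the GM-CSF receptor had no fixed order across these libraries. In Ly6Clow monocytes the order was Csf1r (335 CPM per kb), Csf2ra (112), Csf3r (63.6), Csf2rb (38.3) and Csf2rb2 (7.28), and it held at each step in 16 of 16 libraries. Csf2ra and Csf3r thus changed places between the kinds of monocyte.

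**Figure D1:**
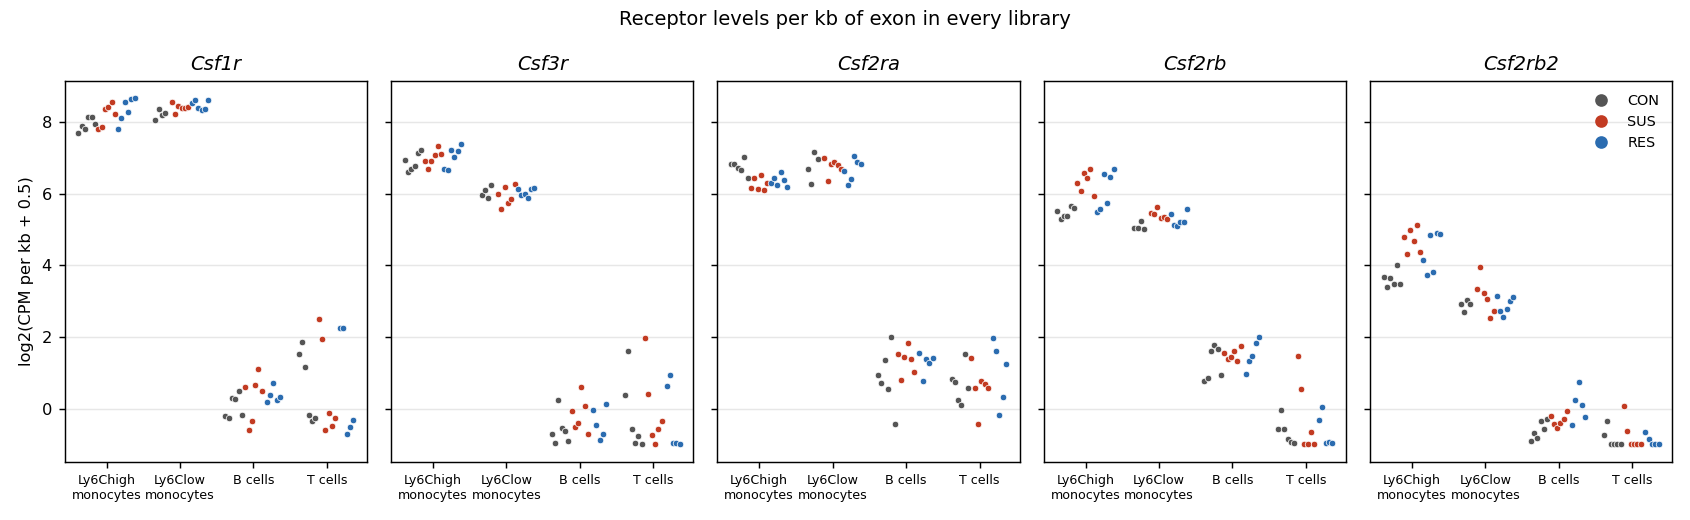
Levels of the 5 receptor genes in every library, as log2(CPM per kb of exon + 0.5), for the 4 sorted cell types, with 1 point per library coloured by CON, SUS and RES mice. Csf1r lies highest in both kinds of monocyte, and in T cells Csf1r falls into a higher and a lower set of libraries.

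To ask how the receptors differ between cell types without stress, the cell types were compared within CON mice in one fit of 12 groups (4 cell types by 3 conditions) over the 68 libraries. With edgeR's quasi-likelihood test at an adjusted p under 0.05, all 5 receptors were higher in Ly6Chigh monocytes than in B cells, where 22.3% of 24248 genes were higher, and than in T cells (21.2% of genes). All 5 were also higher in Ly6Clow monocytes than in B cells (21.5% of genes) and T cells (19.6%). Against B cells, the largest difference was that of Csf3r, at 9.16 ± 1.02 on the log2 scale (SE) in Ly6Chigh monocytes, and the smallest that of Csf2rb, at 4.45 ± 0.70. Csf3r had as few as 1 read in a B cell library of CON mice, and without library 41, the highest of these, its difference was 10.17. Against T cells, Csf2rb was 8.10 ± 0.84 higher in Ly6Chigh monocytes, and 8.86 higher without T cell library 56. Csf2rb was thus the receptor that separated monocytes least from B cells.

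The kinds of monocyte differed less, and the answer depended on which libraries set the spread. In the fit of 12 groups no receptor differed between Ly6Chigh and Ly6Clow monocytes of CON mice, where 16.9% of genes passed. When the fit held only these 2 groups, 4 of 5 receptors passed by edgeR's quasi-likelihood test, against 23.7% of 17678 genes. Csf3r was higher in Ly6Chigh monocytes by 0.84 ± 0.12 on the log2 scale (adjusted p = 3.21e-05), Csf2rb2 by 0.76 ± 0.14 (adjusted p = 0.000597) and Csf2rb by 0.36 ± 0.09 (adjusted p = 0.00617). Csf1r was lower there by a log2 difference of -0.29 ± 0.10 (adjusted p = 0.0340). Csf2ra did not pass, at -0.07 ± 0.14. The estimates themselves were nearly the same in both fits, and what differed was the error: the SE of Csf3r was 0.80 in the fit of 12 groups, which held all cell types.

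The receptor genes that changed after CSDS were those of the GM-CSF receptor and its beta chain copy, in Ly6Chigh monocytes, the inflammatory monocytes of the blood. The beta chain genes, Csf2rb and Csf2rb2, were higher in SUS than in CON mice, and the alpha chain gene Csf2ra was lower. The receptors Csf1r and Csf3r did not pass the test. In all, 3 of 5 receptors passed in SUS vs. CON mice, 2 higher and 1 lower, while 12.6% of 16955 genes tested passed, 8.78% higher and 3.84% lower. In RES vs. CON mice the same 3 receptors passed in the same directions, where 4.97% of genes passed, 3.71% higher and 1.26% lower. Both comparisons use the same CON libraries. The 3 calls in SUS mice held in all 12 fits that each left out 1 library, whereas in RES mice the call of Csf2ra was lost in 11 of 12 such fits, that of Csf2rb in 9 and that of Csf2rb2 in 6. Among these fits for RES mice, Csf2ra passed only without RES library 12 (-0.46), and Csf2rb only without RES library 3, 6 or 12 (0.79, 0.78 and 0.76 in turn). Csf2rb2 no longer passed without CON library 1, 4 or 7 or RES library 9, 15 or 18, with 0.75 as its lowest value.

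The common beta chain gene Csf2rb ranged from 281 to 361 CPM in the 6 CON libraries, with a median of 315. In SUS mice it ranged from 441 to 750 CPM, with a median of 598, and in RES mice from 327 to 749, with a median of 514. Every SUS library was above every CON library, as was the case in either direction for 8.5% of 13387 genes with a mean of at least 1 CPM. The RES libraries were split. Libraries 3 and 6, at 327 and 346 CPM, lay inside the CON range, and library 12, at 384 CPM, lay above it and below the SUS range. Libraries 9, 15 and 18, at 677, 644 and 749 CPM, lay within the SUS range. Csf2rb rose by 0.86 ± 0.19 on the log2 scale in SUS mice (adjusted p = 0.00448, edgeR's quasi-likelihood test) and by 0.68 ± 0.19 in RES mice (adjusted p = 0.0349).

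Csf2rb2, the copy that works with Il3ra, followed the same pattern at a lower level. It ranged from 48.0 to 73.3 CPM in CON mice (median 53.9), from 91.9 to 163 in SUS mice (median 125) and from 60.9 to 139 in RES mice (median 108). SUS and CON libraries again did not overlap. Among RES libraries, numbers 3, 6 and 12 held 81.0, 60.9 and 64.2 CPM and numbers 9, 15 and 18 held 135, 139 and 137, the same split as for Csf2rb. Csf2rb2 had the largest change of the receptors, at 1.11 ± 0.21 in SUS mice (adjusted p = 0.00177) and 0.85 ± 0.20 in RES mice (adjusted p = 0.0234, both by edgeR's quasi-likelihood test on the log2 scale).

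Csf2ra, the chain that recognizes GM-CSF, went the other way. It ranged from 246 to 372 CPM in CON mice (median 312), from 198 to 262 in SUS mice (median 213) and from 207 to 280 in RES mice (median 231). The groups overlapped only through 1 CON library, number 16, at 246 CPM; 4 of 6 SUS and 4 of 6 RES libraries were below all CON libraries. Csf2ra fell by 0.51 on the log2 scale in SUS mice, with an SE of 0.12 (adjusted p = 0.00709), and by 0.41 in RES mice, with an SE of 0.12 (adjusted p = 0.0497, both by edgeR's quasi-likelihood test). The RES value lay just inside the threshold.

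**Figure D2:**
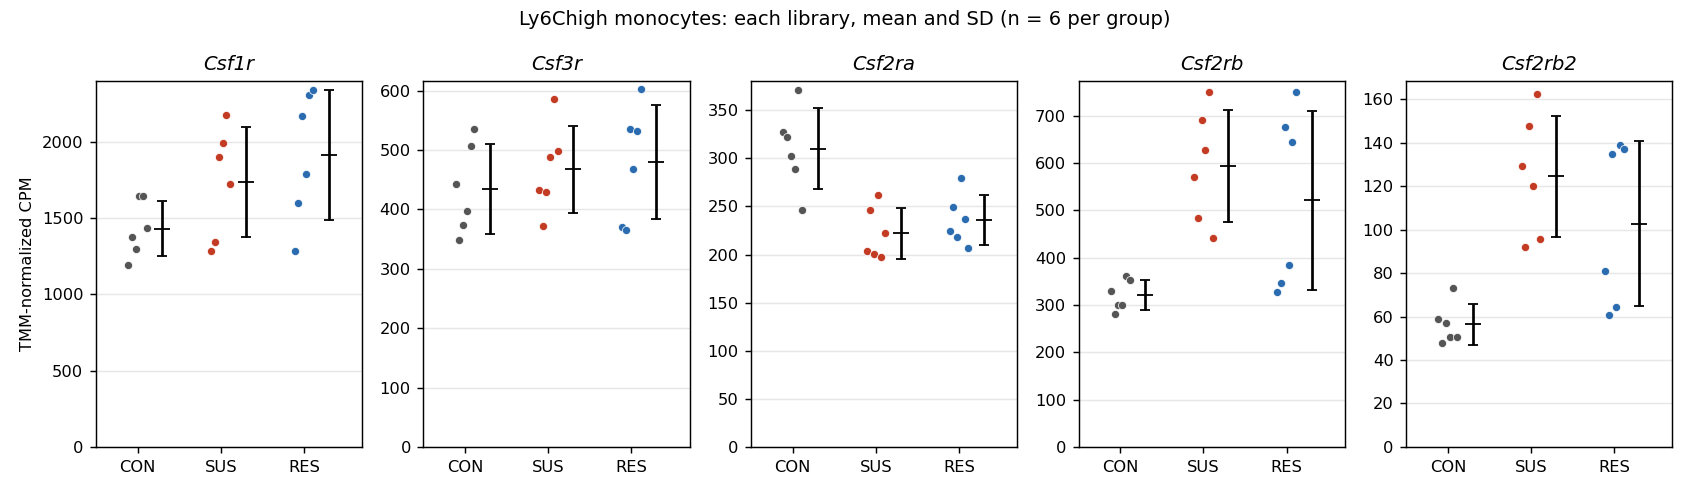
TMM-normalized CPM of each receptor gene in Ly6Chigh monocytes of CON, SUS and RES mice, with 1 point per library and the mean and SD of the 6 libraries beside them. Csf2rb and Csf2rb2 do not overlap between CON and SUS mice, and for both genes 3 RES libraries lie low and 3 high.

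Csf1r had the highest level of all and a wide spread after CSDS. It ranged from 1194 to 1644 CPM in CON mice (median 1405), from 1283 to 2177 in SUS mice (median 1813) and from 1285 to 2342 in RES mice (median 1979). In SUS and in RES mice 4 of 6 libraries were above all CON libraries, and the groups overlapped. Its log2 fold change was 0.24 ± 0.15 in SUS mice (adjusted p = 0.332) and 0.40 ± 0.15 in RES mice (adjusted p = 0.125, edgeR's quasi-likelihood test), and neither passed. Hmgxb3, which shares exonic bases with it, had values of -0.08 ± 0.20 and 0.05 ± 0.20. Csf3r overlapped in all groups, with medians of 420 CPM for CON, 460 CPM for SUS and 500.2 CPM for RES mice, and log2 fold changes of 0.08 ± 0.15 and 0.13 ± 0.15.

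**Figure D3:**
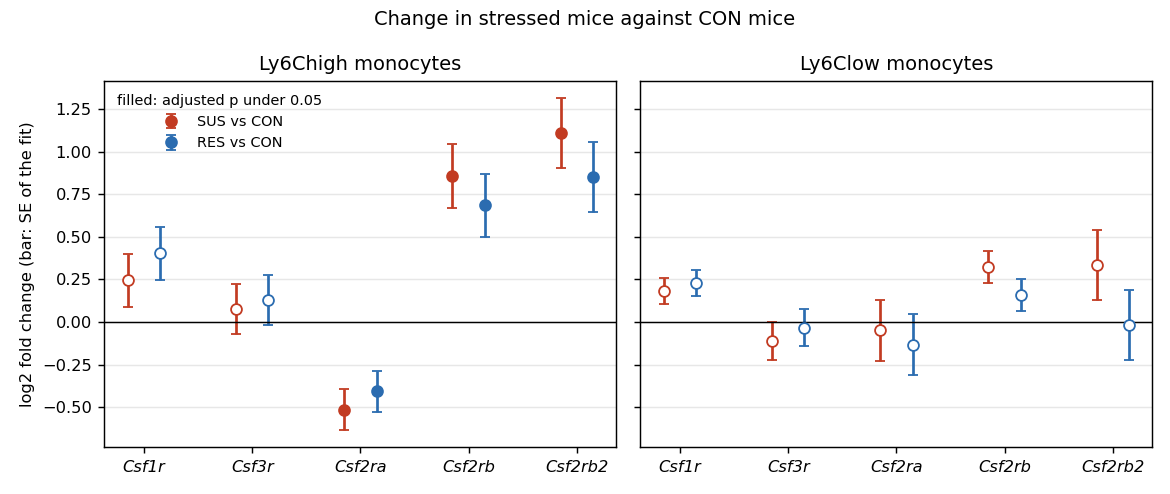
Log2 fold change with its SE (bars) of each receptor gene for SUS vs. CON and RES vs. CON mice in Ly6Chigh and Ly6Clow monocytes, from edgeR's quasi-likelihood fits. Filled points passed at an adjusted p under 0.05, and these are Csf2ra, Csf2rb and Csf2rb2 in Ly6Chigh monocytes.

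The scaling of the libraries bears on these directions. With library totals alone in place of TMM, the median of all genes shifted to -0.26 in SUS vs. CON mice and to -0.22 in RES vs. CON mice, and the genes that passed in SUS mice were 612 higher and 1403 lower, where the TMM fit gave 1488 and 651. Csf2rb, Csf2rb2 and Csf2ra kept their directions and their calls in SUS mice under that scaling, at 0.62, 0.88 and -0.73. In RES mice Csf2rb (0.50, adjusted p = 0.127, edgeR's quasi-likelihood test) and Csf2rb2 (0.67, adjusted p = 0.0605) no longer passed, and Csf3r turned to -0.06, while it was -0.15 in SUS mice.

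The ratio of the alpha to the common beta chain within a library, which does not depend on scaling, was compared as well. It rests on the same counts as the values above and is not independent of them. Per kilobase, Ly6Chigh monocytes of CON mice held a median of 2.54 Csf2ra for each Csf2rb, with a range of 1.77 to 2.91. In SUS mice the median was 0.979 (0.668 to 1.29), and in RES mice 1.27 (0.699 to 1.85). SUS and CON libraries did not overlap. The log2 ratio was lower by -1.35 in SUS than in CON mice (p = 0.00216 by a two-sided exact permutation test, the smallest that 6 against 6 libraries can give, and 0.0260 after adjustment over 12 ratio tests) and by -1.01 in RES than in CON mice (exact permutation p = 0.00649, adjusted 0.0390). SUS and RES mice differed by -0.33 (exact permutation p = 0.299, adjusted 0.358). With 1 library left out, which raises the smallest p that the test can give, the call was lost in 5 of 12 fits for SUS vs. CON mice (without CON library 1, 4, 7, 10 or 13, adjusted p up to 0.0519). SUS and CON libraries still did not overlap in these 5 fits, so the permutation test gave its smallest p there. The loss of the call thus reflects the limit of the test and does not show a weaker difference. For RES vs. CON mice the call was lost in 11 of 12 (adjusted p up to 0.0779) and held only without CON library 16.

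The ratio of Csf1r to Csf3r, the receptors that did not pass alone, moved less. Per kilobase it ranged from 1.68 to 2.59 in CON, 1.86 to 2.76 in SUS and 2.17 to 2.74 in RES mice in Ly6Chigh monocytes. In Ly6Clow monocytes the median was 4.58 for CON, 5.95 for SUS and 5.42 for RES mice. The largest difference was 0.31 on the log2 scale, in Ly6Clow monocytes of SUS vs. CON mice (exact permutation p = 0.0476, adjusted 0.140), and none of the 6 comparisons of this ratio passed after adjustment.

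**Figure D4:**
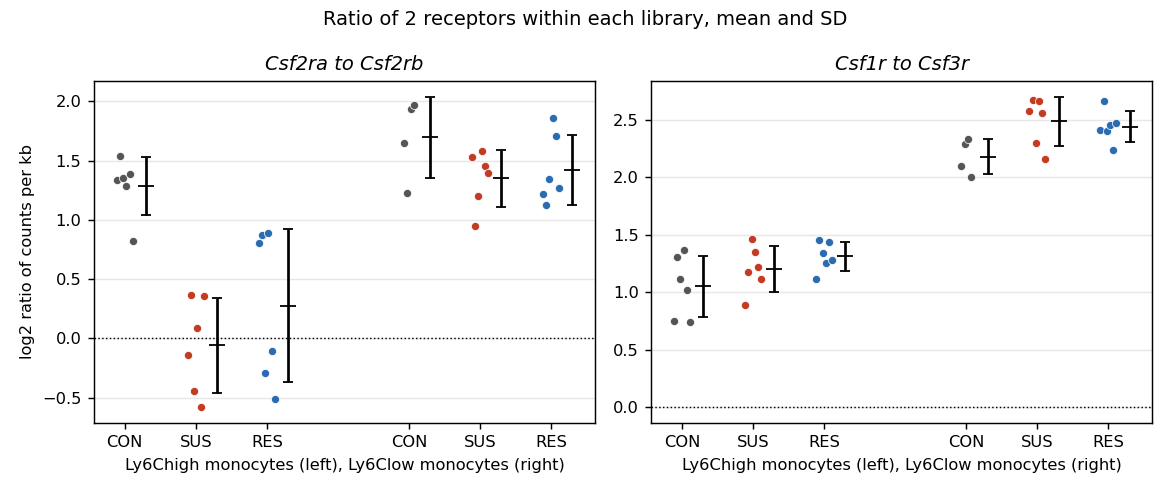
Log2 ratio of counts per kb of Csf2ra to Csf2rb and of Csf1r to Csf3r in each monocyte library (points), with the mean and SD of each group, for CON, SUS and RES mice. In Ly6Chigh monocytes the CON libraries for Csf2ra to Csf2rb lie between log2 values of 0.83 and 1.54, above all SUS libraries.

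No receptor passed between SUS and RES mice in any cell type. In Ly6Chigh monocytes the log2 fold change of SUS vs. RES mice was 0.17 ± 0.18 for Csf2rb, 0.26 ± 0.20 for Csf2rb2 and -0.11 ± 0.12 for Csf2ra, each with an adjusted p of 0.999 by edgeR's quasi-likelihood test. Only 0.0059% of 16955 genes passed this comparison. An unadjusted p under 0.05 was seen for 620 genes, a smaller share than the 0.05 that no difference at all would give. With DESeq2, 13 genes passed.

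Markers of red cells differed in the same comparison, while most of the other marker lists held no gene that passed. In Ly6Chigh monocytes the 6 red cell genes summed to 235 to 892 CPM in CON mice, to 794 to 6342 CPM in SUS mice and to 779 to 3153 CPM in RES mice. Of these genes, 6 of 6 were higher in SUS and 3 of 6 in RES mice, where 8.78% and 3.71% of all genes were. The 4 Ly6Chigh monocyte genes summed to 5675 to 6966 CPM for CON, 7594 to 11018 for SUS and 5855 to 9290 for RES mice, with Chil3 and Ly6c2 higher in SUS mice. The 8 neutrophil genes summed to 14.5 to 359 CPM for CON, 22.3 to 1187 for SUS and 6.30 to 617 for RES mice, and none of the 6 that could be tested passed. The 4 granule progenitor genes, from cells that also carry colony-stimulating factor receptors, summed to 3.74 to 31.8 CPM for CON, 12.1 to 143 for SUS and 20.1 to 83.5 for RES mice, and 1 of 4, Prtn3, was higher in SUS and in RES mice. The 4 platelet genes summed to 5.62 to 10.0 CPM for CON, 5.66 to 49.5 for SUS and 6.34 to 17.8 for RES mice, with Ppbp higher in SUS mice. The 5 dendritic cell genes summed to 70.1 to 111 CPM for CON, 27.6 to 87.9 for SUS and 62.1 to 110 for RES mice, and the 6 Ly6Clow monocyte genes to 1389 to 1736, 761 to 1698 and 1153 to 1759 CPM in turn, and no gene of these lists passed. The B cell, T cell, NK cell, eosinophil, and basophil and mast cell lists summed to 32.1 CPM or less in each library, with no gene that passed. The part of these cells in the result was not tested. In sorted but bulk samples, fewer cells of a type and less RNA per cell cannot be told apart.

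In Ly6Clow monocytes, the patrolling monocytes, no receptor passed after CSDS. Few genes did, 0.241% of 19521 in SUS vs. CON and 0.0256% in RES vs. CON mice. Csf2rb was at 239, 237, 273 and 234 CPM in the 4 CON libraries and between 285 and 357 CPM in SUS mice (median 303), so that these groups did not overlap, as was the case for 2.31% of 14348 genes. Its log2 fold change of 0.33 ± 0.09 did not pass over all genes (adjusted p = 0.169, edgeR's quasi-likelihood test). In RES mice it ranged from 245 to 343 CPM. By the same test, the unadjusted p was 0.00167 for Csf2rb and 0.0266 for Csf1r in SUS vs. CON mice. It was 0.00630 for Csf1r in RES vs. CON mice and above 0.05 for the other receptors. None of these passed after adjustment, and DESeq2 called no receptor either.

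The other receptors of Ly6Clow monocytes overlapped between groups. Csf2ra, the alpha chain, was at 295, 219, 412 and 362 CPM in CON mice and 236 to 364 in SUS mice, with a log2 fold change of -0.05 ± 0.18. Csf2rb2 was at 33.4, 28.6, 36.2 and 33.4 CPM in CON mice and 25.0 to 71.5 in SUS mice (0.33 ± 0.21). Csf1r had medians of 1731 CPM for CON, 1962 for SUS and 2052 for RES mice, with log2 fold changes of 0.18 ± 0.08 (adjusted p = 0.429) and 0.23 ± 0.08 (adjusted p = 0.289) by edgeR's quasi-likelihood test. Csf3r was at 211 to 274 CPM in CON and 170 to 275 in SUS mice (-0.11 ± 0.11). Over the 16 Ly6Clow monocyte libraries, the NK cell genes summed to 189 to 1083 CPM and the T cell genes to 19.7 to 97.6 CPM. The sums were 0 to 94.9 CPM for basophil and mast cell genes, 3.31 to 68.8 for eosinophil genes and 3.10 to 69.3 for neutrophil genes. Library 22 (SUS), with the highest Csf2rb2, also had the highest basophil and mast cell and neutrophil sums. The part of these cells was not tested.

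A receptor that passed in Ly6Chigh and not in Ly6Clow monocytes was not thereby shown to differ between them. The difference of the SUS vs. CON changes was 0.56 ± 0.90 for Csf2rb, 0.80 ± 0.84 for Csf2rb2 and -0.44 ± 0.52 for Csf2ra (adjusted p = 0.924 for Csf2rb and 0.788 for Csf2rb2, edgeR's quasi-likelihood test of the interaction), where 0.363% of 24248 genes passed. These SEs come from the fit of 12 groups, which held all cell types. In the fits within Ly6Chigh and within Ly6Clow monocytes, the SE of the SUS vs. CON change was 0.19 and 0.09 in turn for Csf2rb. For Csf2rb2 it was 0.21 in both, and for Csf2ra 0.12 and 0.18 in turn. No receptor passed against B cells or T cells either (6.18% and 3.22% of genes), nor for the RES vs. CON changes, where 0.099%, 1.65% and 0.713% of genes passed for Ly6Clow monocytes, B cells and T cells, and a fit on the monocytes alone gave no call.

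B cells were read for Csf2rb above all. Its level was 8.90 to 25.5 CPM over the 17 libraries, with at least 250 reads in each. Per kilobase the order by median was Csf2rb (2.25 CPM per kb), Csf2ra (2.06), Csf1r (0.739), Csf2rb2 (0.294) and Csf3r (0.200), and Csf2rb was above Csf2ra in 12 of 17 libraries. The B cells also held Il5ra, the IL-5 receptor alpha chain that pairs with the common beta chain, at 15.2 to 38.4 CPM, while Il5ra was at 3.81 CPM or less in every library of the other cell types. In CON mice Csf2rb was higher in B cells than in T cells by 3.65 ± 0.71 on the log2 scale (adjusted p = 3.42e-05, edgeR's quasi-likelihood test), the only receptor that passed this comparison, in which 28.9% of genes did. Without T cell library 56 the difference was 4.42. After CSDS no receptor passed in B cells, where 1 gene did in SUS vs. CON mice (0.00568%). Csf2rb had medians of 14.4 CPM for CON, 16.9 for SUS and 16.4 for RES mice. Csf2rb2 in RES vs. CON mice, at 1.85 ± 0.62 on the log2 scale, had an adjusted p of 0.9996 by edgeR's quasi-likelihood test and an unadjusted p of 0.00618, with medians of 0.707 CPM in CON mice and 2.76 CPM in RES mice.

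The T cell libraries fell into sets that went with their library numbers and not with the groups. In libraries 53 to 59, which were 3 CON, 2 SUS and 2 RES libraries, Csf1r was at 10.0 to 29.6 CPM, and in the other 10 it was at 0.623 to 2.45 CPM. Csf2rb was at 1.27 to 16.6 against 0 to 0.960 CPM, and Csf3r at 0.647 to 12.3 against 0 to 1.05 CPM. Csf2ra overlapped, at 1.96 to 9.90 against 0.706 to 6.84 CPM. Csf2rb2 was at 3 counts or fewer in 11 of 17 T cell libraries.

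Of the 10 monocyte genes, 4 went with this split. The Ly6Clow monocyte genes Ace (10.9 to 19.7 against 0.117 to 0.599 CPM), Cd300e (0.588 to 4.79 against 0 to 0.103 CPM) and Treml4 (1.32 to 4.96 against 0 to 1.20 CPM), and the Ly6Chigh monocyte gene Chil3 (3.28 to 40.3 against 0.165 to 0.537 CPM), did not overlap between the sets. F13a1 overlapped, at 1.85 to 30.6 against 0.273 to 2.90 CPM, as did Ccr2 (medians of 44.3 against 38.5 CPM), Nr4a1 (5.46 against 4.17 CPM) and Cx3cr1 (7.46 against 4.58 CPM). Ly6c2 and Spn overlapped too and had lower medians in libraries 53 to 59, at 71.6 against 107 CPM and 748 against 879 CPM. The sum over each monocyte list overlapped (72.1 to 184 against 87.7 to 202 CPM for the 4 Ly6Chigh monocyte genes), as did that over the T cell list, at 1715 to 2333 against 1624 to 2330 CPM. The part of monocyte RNA in these receptor levels was not tested. Libraries 53 to 59 were seen to stand apart by these receptor levels, so leaving them out fixes which way a comparison with T cells moves, and the values without them are given with no test. In CON mice, Csf2rb was then higher in B cells than in T cells by 5.83 on the log2 scale, against 3.65 with all libraries, and Csf1r was at 0.75 against -1.26. The 3 remaining CON libraries held 0 or 1 reads of Csf2rb2. No receptor passed after CSDS in T cells, with SEs of 0.48 for Csf2ra and of 1.12 to 1.69 for the others in SUS vs. CON mice, where 0.0424% of genes passed.

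**Figure D5:**
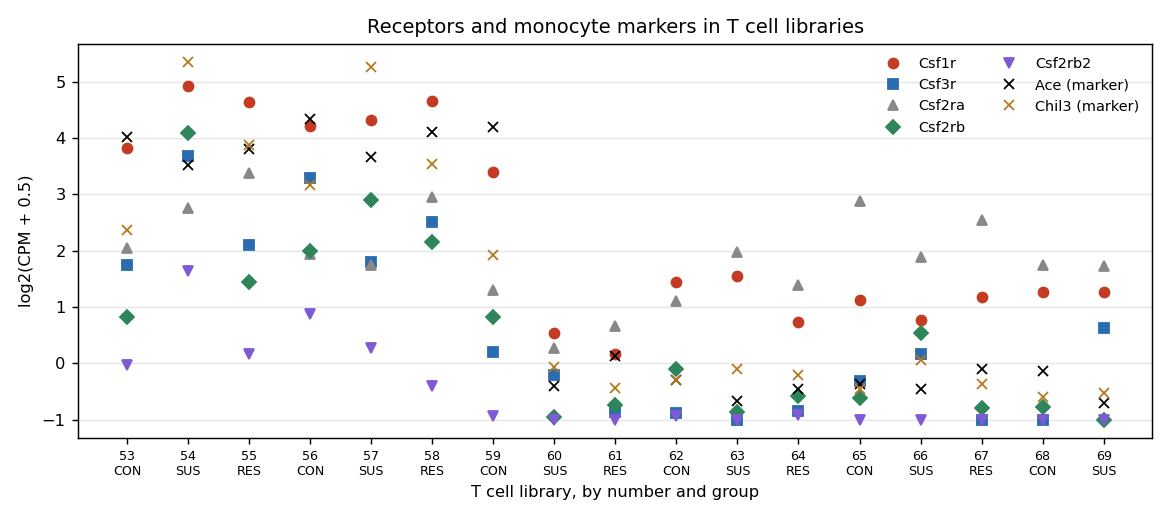
Levels of the receptor genes and of the monocyte genes Ace and Chil3, as log2(CPM + 0.5), in the 17 T cell libraries by library number and group. Libraries 53 to 59 lie above the others for Csf1r, Csf2rb, Ace and Chil3.

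The ligands had few or no reads in these cells, apart from Csf1. Il3 had 0 reads in all 68 libraries, which allows up to 0.166 CPM in the shallowest (3 counts, for counting error only), and Csf2, which encodes GM-CSF, had 0 reads in Ly6Chigh monocytes and B cells and at most 29 reads in a library of the other cells. Csf3, Il5 and Il34 had a median of 0.339 CPM or less in every group and were at 2.64 CPM or less in every library. The range of Csf1 was 1.17 to 19.9 CPM for Ly6Chigh monocytes, 2.61 to 42.3 for Ly6Clow monocytes, 2.59 to 8.95 for B cells and 0.0693 to 2.88 for T cells. In Ly6Chigh monocytes Csf1 was at 3.50 to 7.13 CPM in CON and 2.19 to 4.49 in SUS mice, and its log2 fold change of -0.86 did not pass (adjusted p = 0.312, edgeR's quasi-likelihood test).

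Related receptors did not pass after CSDS in either kind of monocyte. Il3ra, the partner of Csf2rb2, was at 11.6 to 28.6 CPM in CON and 13.9 to 51.8 in SUS mice in Ly6Chigh monocytes. Flt3, a receptor tyrosine kinase of the same class as Csf1r, was at 56.7 to 91.9 CPM in CON and 23.7 to 78.6 in SUS mice there. Kit, another of that class, was read mainly in the Ly6Clow monocyte libraries, at 5.31 to 22.0 CPM, and was at 2.45 CPM or less in Ly6Chigh monocytes. The Ly6Clow monocyte libraries also held basophil and mast cell genes, at a sum of up to 94.9 CPM, and their part in the Kit level was not tested.

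Downstream of the receptors, Socs3, Pim1 and Stat3 had in Ly6Chigh monocytes of SUS mice the smallest adjusted p-values of the 4 lists described here. Of 23 signalling genes, 4 were higher and 2 lower, where 8.78% and 3.84% of all genes were, with a median log2 fold change of 0.32 over the list against -0.05 over all genes. Stat3, the transcription factor that G-CSF activates, ranged from 256 to 330 CPM in CON mice and from 409 to 554 in SUS mice. These did not overlap, as was the case in either direction for 8.5% of 13387 genes with a mean of at least 1 CPM. The change of Stat3 was 0.69 ± 0.14 (adjusted p = 0.00330, edgeR's quasi-likelihood test). Tyrobp, an adaptor that works with Csf1r (0.76), the kinase Akt1 (0.56) and the Src family kinase Fgr (0.50) were higher as well. Jak2, the kinase bound to the common beta chain, was lower by a log2 fold change of -0.49, from 92.9 to 139 CPM in CON mice to 52.2 to 101 CPM in SUS mice with overlap, and Sos1, which links receptors to Ras, was also lower, at -0.49. In RES mice Akt1 (0.55), Stat3 (0.51), Stat5b (0.44) and Tyrobp (0.66) were higher and none was lower, where 3.71% and 1.26% of all genes were. Akt1, Stat3 and Stat5b no longer passed in RES mice with DESeq2's size factors, with library totals or without the low-count filter, and Tyrobp not with library totals. Without the filter, Jak2 and Sos1 no longer passed in SUS mice.

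Among 13 inhibitors of these receptors, of which 11 could be tested, 1 passed in SUS mice, where 12.6% of all genes did, and the same 1 in RES mice, where 4.97% did. Socs3, which is induced by Stat3 and blocks signalling from the G-CSF receptor, ranged from 22.9 to 44.8 CPM for CON, 107 to 495 for SUS and 63.5 to 238 for RES mice. All stressed libraries were above all CON libraries. For SUS and CON libraries, 8.5% of 13387 genes with a mean of at least 1 CPM did not overlap in either direction. The share for RES and CON libraries was not computed. It rose by 2.90 ± 0.41 in SUS mice (adjusted p = 0.000638) and by 2.02 ± 0.40 in RES mice (adjusted p = 0.0140, both by edgeR's quasi-likelihood test on the log2 scale). The list's median was -0.05 in SUS mice, the same as over all genes to 2 decimals. Socs3 also rose in SUS mice in B cells (1.59 ± 0.26, adjusted p = 0.0483) and in T cells (1.72 ± 0.22, adjusted p = 0.00338).

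Of 10 genes that these receptors are known to induce, 1 was higher and 1 lower in SUS mice (8.78% and 3.84% of all genes), and 1 was higher in RES mice (3.71%). Pim1, a survival kinase, was higher at 1.46 ± 0.22 in SUS mice (adjusted p = 0.000636, edgeR's quasi-likelihood test), with 40.6 to 46.7 CPM in CON and 75.6 to 186 CPM in SUS mice, and at 0.95 ± 0.22 in RES mice. The cell cycle gene Ccnd1 was lower in SUS mice, at -1.40 ± 0.45, from 3.73 to 11.3 CPM in CON to 0.850 to 3.58 CPM, and did not pass without the low-count filter. The median of this list was 0.61 in SUS mice.

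Of 13 transcription factors that control myeloid genes, Spi1 (0.53) and Cebpd (0.65) were higher and Klf4 (-0.60) lower in SUS mice, where 8.78% and 3.84% of all genes were. The list's median was 0.18, and none passed in RES mice (4.97% of all genes). Cebpd did not pass with DESeq2's size factors. Spi1, which drives the expression of several of these receptors in myeloid cells, ranged from 310 to 446 CPM in CON and from 412 to 824 CPM in SUS mice with overlap. With library totals alone as scaling, Akt1, Fgr, Tyrobp, Spi1 and Cebpd no longer passed in SUS mice, while Stat3, Socs3, Pim1 and Klf4 did. None of the genes in the signalling, inhibitor, target and transcription factor lists passed in Ly6Clow monocytes.

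The genes whose levels were most like those of each receptor were taken by Pearson's r of log2(CPM + 0.5) among 11577 protein-coding genes with a mean of at least 1 CPM. Over all 68 libraries, where the cell types set most of the pattern, these were Cd300a, Lrp1 and Tlr13 for Csf1r (r of 0.992, 0.992 and 0.991), and Emilin2, Tlr13 and Tifab for Csf3r (0.990, 0.985 and 0.985). For Csf2rb they were Plxnb2, Nfam1 and Pirb (0.989, 0.984 and 0.980), for Csf2ra Nupr1, I830077J02Rik and Sowahc (0.979, 0.977 and 0.977), and for Csf2rb2 Tyrobp, Mcemp1 and Plod3 (0.978, 0.975 and 0.975).

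Within the 18 libraries of Ly6Chigh monocytes the order was different. Csf2rb2 was the second most similar gene to Csf2rb (r = 0.958), after Sbno2 (0.967) and before Ctsd (0.957), and Sbno2 was also the first for Csf2rb2 (0.971), before Prdx6 (0.969) and Hp (0.965). Csf2ra was most like Ifi44 (0.904), Ptchd1 (0.883) and Zfhx3 (0.851), and its r with Csf2rb was -0.73 and with Csf2rb2 -0.75. Csf1r was most like Flna (0.965), Myh9 (0.953) and Tln1 (0.946), and Csf3r like Ap3d1 (0.881), Usp19 (0.880) and Skiv2l (0.866). These libraries share the difference between CON and stressed mice, their depth and their content of other cells, and the values are descriptions across 18 libraries.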

How the data were processed

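RNA of leukocytes sorted from blood was sequenced in 70 libraries, and the authors deposited raw read counts per gene, one column per library, without normalization. Per the labels and the methods, paired-end reads of 150 bases were mapped to mm10 with HISAT2 and counted on genes of Ensembl release 90 with htseq-count. The strand setting, and how reads that map to several places were treated, are not given in the sources used here. Groups and cell types were taken from the labels. Libraries 52 and 70 were left out, since their B cell and T cell genes went against their labels.

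Identifiers were matched to GENCODE M21 (52489 of 52636 genes). The analysis used edgeR 4.0.16 in R 4.3.3 (filterByExpr, TMM, robust quasi-likelihood fit and F test), within each cell type for stress and in 1 fit of 12 group means for cell types and for differences between them. P-values were adjusted by the Benjamini-Hochberg method over all genes tested, and a gene passed at an adjusted p under 0.05. SE is the size of the log2 fold change over the root of F. Levels are TMM-normalized CPM over the 68 libraries, divided by exonic length for comparisons between genes. Ratios were compared with two-sided exact permutation tests, computed in scipy 1.17.1. No 2 libraries of a group agreed within sampling noise: the closest pair differed by a mean chi-square of 26.1 per gene. The fits were tested on simulated data. Since no molecular identifiers were used, reads are not independent molecules, and the errors given are those between libraries. The deposited file holds no columns of unmapped samples.

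The receptors and the lists of ligands, related receptors, signalling genes, inhibitors, transcription factors, targets and markers were chosen with earlier results of these data known. All receptors, ligands and related receptors were named, list genes where they passed in a stress contrast of monocytes, and the 3 genes most like each receptor. Alternatives were DESeq2 1.42.0, its size factors, no low-count filter, libraries 52 and 70 kept, mitochondrial, hemoglobin and 2 abundant non-coding genes left out, only the groups compared in the fit, a log2 fold change above 1, each library left out in turn, and pseudocounts of 0.1 and 1 CPM. Library totals without TMM, and leaving out T cell libraries 53 to 59, were added after the data were seen. A few marker genes are not reported here and were left out of the sums.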

Additional observations from a re-analysis of the deposited data

Results flagged for a closer look

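Of 72 groups of 4 to 6 libraries that were looked at for a library far from the others, 8 held one. The threshold flags about 1 in 20 groups if values are normal and groups independent. CPM values need not be normal, and the same libraries recur across genes, so the count of 8 was not set against chance. Csf2rb in Ly6Clow monocytes of CON mice was at 273 CPM in library 29, with the other 3 at 234 to 239 CPM. Csf3r in B cells of CON mice was at 2.44 CPM in library 41, with the others at 0.696 CPM or less. The log2 ratio of Csf2ra to Csf2rb in Ly6Chigh monocytes of CON mice was 0.83 in library 16, with the others at 1.29 to 1.54.

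The remaining 5 were in T cells, all in the set of libraries 53 to 59. In CON mice, library 56 held 3.47 CPM of Csf2rb (others up to 1.27), 1.34 CPM of Csf2rb2 (up to 0.485) and 9.22 CPM of Csf3r (up to 2.86). In SUS mice, library 54 held 2.60 CPM of Csf2rb2 (up to 0.715) and 12.3 CPM of Csf3r (up to 2.96). Library 56 and library 54 thus stood apart for several receptors at once.

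Library 70, which is labelled as T cells of RES mice and was left out, held Csf2rb at 18.1 CPM of its total. This was above the highest TMM-normalized values in T cells of CON (3.47 CPM) and RES mice (3.93 CPM) and within the range of the B cell libraries. In SUS mice the highest T cell value was 16.6 CPM after TMM normalization, in library 54. That scale differs from CPM of the total, so libraries 54 and 70 were not ranked.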

How the results depend on the processing

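No paired analysis was possible because the labels give no replicate numbers that groups share. In SUS vs. CON Ly6Chigh monocytes, Csf2rb, Csf2rb2 and Csf2ra kept their direction and call under DESeq2, its size factors, no filter, the left-out genes, only the 2 groups, library totals and with any 1 library left out, at 3 receptors called throughout. With 1 library left out, Csf2ra was at -0.56 to -0.47, Csf2rb at 0.74 to 0.92 and Csf2rb2 at 0.98 to 1.18, and over the other settings at -0.73 to -0.52, 0.62 to 0.85 and 0.88 to 1.11. With a log2 fold change above 1 required, only Csf2rb2 (1.11) was still called there, and no receptor in RES vs. CON mice, where Csf2rb2 was at 0.85. The RES calls were less steady. With library totals only Csf2ra (-0.59) was called, and Csf2rb was at 0.50, Csf2rb2 at 0.67 and Csf3r at -0.062 (-0.15 in SUS mice). With DESeq2's size factors Csf2rb was at 0.61 (adjusted p = 0.0513), and without the filter Csf2ra at -0.43 (adjusted p = 0.0713, both by edgeR's quasi-likelihood test). With 1 library left out, 0 to 3 receptors were called in RES mice, and 0 without CON libraries 1, 4 or 7 or RES libraries 9, 15 or 18. With any 1 library left out, RES values ran from -0.46 to -0.37 for Csf2ra, 0.56 to 0.79 for Csf2rb and 0.75 to 0.96 for Csf2rb2, and the log2 ratio of Csf2ra to Csf2rb from -1.44 to -1.24 in SUS vs. CON and -1.14 to -0.85 in RES vs. CON mice. Csf1r passed in RES vs. CON mice only without RES library 3 (0.49, adjusted p = 0.0435). Of values that had not passed, those that changed sign with 1 library left out were Csf3r in Ly6Chigh monocytes for SUS vs. CON (-0.032 to 0.18) and SUS vs. RES mice (-0.14 to 0.024), in Ly6Clow monocytes Csf2ra for SUS (-0.20 to 0.10) and RES (-0.28 to 0.019) and Csf2rb2 (-0.081 to 0.048) and Csf3r (-0.079 to 0.035) for RES vs. CON mice, the ratio of Csf2ra to Csf2rb there for SUS vs. RES mice (-0.13 to 0.018), and in CON mice Csf2ra between kinds of monocyte (-0.20 to 0.084) and between B and T cells (-0.000234 to 0.74). Between B and T cells of CON mice, 1 receptor was called in most fits (28.9% of all genes in the main fit), and 2 with DESeq2 and without library 41 or 56. Without T cell libraries 53 to 59, which were picked by their receptor levels, Csf1r was at 0.75 and Csf3r at 2.55, given with no test. Between kinds of monocyte, 4 were called with only those groups in the fit. Of all genes, 1643 higher and 1329 lower passed in SUS vs. CON Ly6Chigh monocytes with DESeq2, and 872 and 672 in RES vs. CON mice. No receptor was called for the differences between cell types under any alternative run, and with pseudocounts of 0.1 or 1 CPM the 3 genes most like a receptor over all libraries changed in part. The cause of these changes was not tested, and T cell levels under 1 CPM are limited by depth.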
